A study of Arabidopsis thaliana with 8 samples.

Results

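Transcripts of 36 genes of the mitochondrial pyruvate dehydrogenase complex and the tricarboxylic acid (TCA) cycle were followed under water and in air, in shoots of the model plant Arabidopsis thaliana. The members were chosen by locus code, as genes of the enzymes named next, and all 36 were found among the 27826 loci of the deposited table. They cover pyruvate dehydrogenase, citrate synthase, aconitase, isocitrate dehydrogenase, 2-oxoglutarate dehydrogenase, succinyl-CoA ligase, succinate dehydrogenase, fumarase, malate dehydrogenase and NAD-malic enzyme. Of the 36 genes, 3 were taken here to encode cytosolic enzymes (cICDH, FUM2 and c-NAD-MDH1) and 33 were not. Where in the cell the products of the 33 act was not examined.

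The design had 4 groups of 2 samples, each hybridised to 1 Affymetrix array. The plants called juvenile had an age of 2 weeks and those called adult an age of 3 weeks. At each age, shoots were taken after 24 h under deionised water in darkness or after 24 h in dark tanks holding no water, so all groups, controls included, had spent 24 h in the dark. The plants had grown on soil under a 12 h photoperiod, treatment started at the end of the light phase, and the water stood 25 cm deep. No genotype is given in the labels, which also do not say whether the 2 samples of a group came from separate sets of plants, so the p-values measure only the spread between these samples. Submerged samples have dark in their titles too; their description, which gives submergence, set the group here.

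Pyruvate made by glycolysis enters the mitochondrion and is oxidised by the pyruvate dehydrogenase complex, whose E1, E2 and E3 components decarboxylate it, pass the acetyl group to coenzyme A and reoxidise the lipoyl arm. The TCA cycle then oxidises the acetyl group and hands electrons to the respiratory chain, which needs oxygen; succinate dehydrogenase belongs to both. Under water, oxygen reaches plant tissue slowly, and pyruvate is diverted to ethanol, lactate and alanine. Parts of the cycle also run as separate branches that supply carbon skeletons for amino acids or move malate and citrate to other compartments, and most steps have several isoforms.

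The expression values were on the log2 scale, and a change is the submerged mean minus the dark control mean on that scale, from a linear model fitted to all loci with limma. A gene was called as changed at an adjusted p (Benjamini-Hochberg over 27826 loci) under 0.05. Of 8 listed hypoxia genes 8 rose at each age, led by the pyruvate decarboxylase gene AT4G33070 (PDC1), by 7.37 at both ages, and AT5G39890 (PCO2), which encodes a plant cysteine oxidase, by 6.76 in juvenile and 6.61 in adult plants. Of 5 leaf markers, 4 lay above the array median on every array and LHCA1 below it, and 4 of 5 root markers and 3 of 3 seed markers lay below it. The exception was PYK10, a myrosinase gene known from roots, which lay between 7.42 and 10.74 and fell on submergence (-1.13 in juvenile plants, -2.21 in adult plants); it is named because it stood apart. The mean of the root markers lay between 4.91 and 5.38 in controls and between 4.43 and 4.95 in submerged arrays, and that of the leaf markers between 8.60 and 8.88 and between 8.34 and 8.59. Their part in the results was not tested. In such whole-shoot samples, fewer cells of a type and less RNA per cell cannot be told apart.

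On submergence, some of the 36 genes rose and others fell: in juvenile plants 15 rose and 4 fell, and in adult plants 14 rose and 6 fell. The called share was 52.8% of members in juvenile plants, against a background of 34.2% of all loci, and 55.6% in adult plants, against 33.6%. For rises alone the shares were 41.7% and 38.9% of members, beside 15.5% and 14.6% of all loci; for falls they were 11.1% and 16.7%, beside 18.8% and 18.9%. These counts rest on few arrays. Without replicate 1 of the submerged juvenile arrays, or replicate 1 or 2 of the juvenile controls, 9, 8 and 7 members rose in juvenile plants and 3 fell each time. In adult plants 10 rose and 3 fell without replicate 1 of the submerged arrays, 9 and 6 without replicate 2 of them, and 8 and 4 without replicate 2 of the controls. At the lowest, 27.8% of members were called in juvenile plants, beside 23.8% of all loci in the same fit, and 33.3% in adult plants, beside 23.7%. With the dimmest 50% of loci left out, 68.8% of the members tested were called in juvenile plants, beside 56.7% of loci, and 62.5% in adult plants, beside 55.9%. The median change of the members was 0.29 in juvenile and 0.23 in adult plants, where all loci had medians of -0.05 and -0.02. Most changes were below 2-fold, with 3 rises and 3 falls of at least that size in juvenile plants and 2 of each in adult plants. The share of all loci called with changes of that size is not given here, so these counts have no background beside them. Scaling mattered in juvenile plants, where the array medians of submerged samples were 0.13 higher than those of controls (-0.03 in adult plants). With each array centred on its median, 10 members rose and 6 fell there, so that 62.5% of the calls were rises instead of 78.9%. The called share was then 44.4% of members, beside 38.4% of all loci. Of all loci, 3663 rose and 7014 fell in that fit. Without regard to a test, the submerged arrays lay wholly above the controls for 22 members and wholly below for 10 in juvenile plants, and for 21 and 6 in adult plants; arrays of the treatments did not overlap for 67.3% and 66.2% of all loci.

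**Figure D1:**
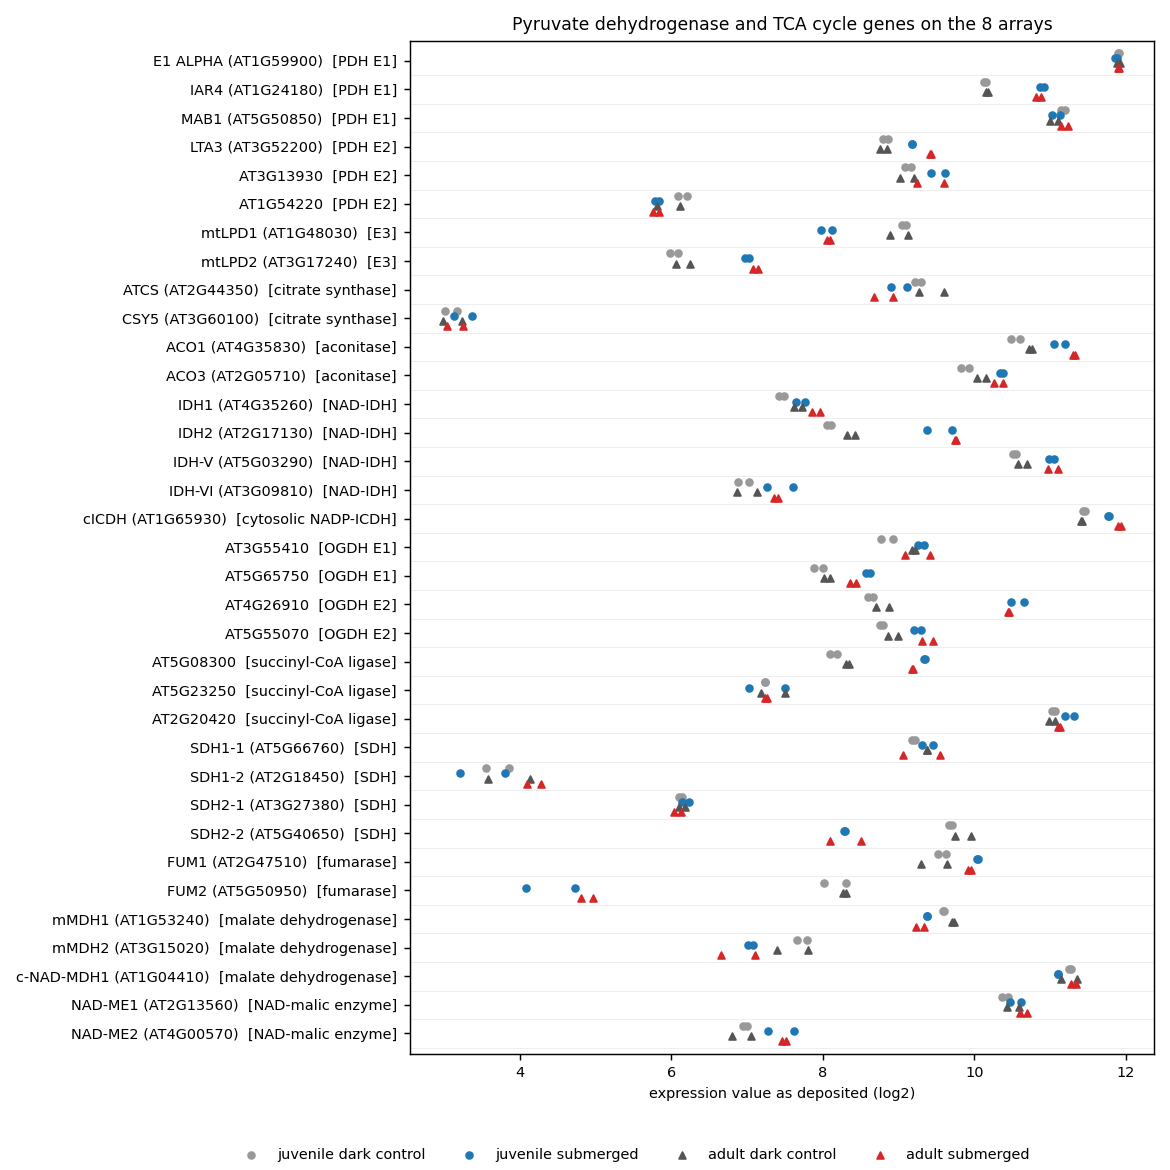
Expression value as deposited (log2, horizontal axis) of 35 of the genes, each listed with its enzyme, on the 8 arrays; grey points and triangles are juvenile and adult dark controls, blue points and red triangles the submerged arrays of the same ages. FUM2 lies between 8.01 and 8.30 in controls and between 4.08 and 4.97 in submerged arrays, and most other genes move by less than 1. Levels of different genes are not comparable on this axis.

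At both ages 17 genes were called in the same direction, 13 up and 4 down, 0 were called in opposite directions, 5 were called at 1 age and 14 at neither. Of all loci, 12.4% rose at both ages and 14.8% fell at both, against 36.1% and 11.1% of the members. The sign of the change was shared by 30 of 36 members (83.3%), beside 78.4% of all loci. The means of these 2 responses have no array in common. Their p-values share each gene's estimate of spread from the same fit, so the calls at the 2 ages are not independent. Among the calls that held at both ages when any 1 of the 8 arrays was left out were those of IAR4, mtLPD1, mtLPD2, IDH2, AT4G26910, AT5G08300, SDH2-2 and FUM2. Where a named call was lost in an omission, the arrays concerned are given with the gene.

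The largest change of any member was that of FUM2 (AT5G50950), which encodes the cytosolic fumarase that makes the fumarate stored by Arabidopsis leaves in the light. Its values were 8.30 and 8.01 in juvenile controls, 4.08 and 4.72 in submerged juvenile plants, 8.30 and 8.27 in adult controls, and 4.97 and 4.81 in submerged adult plants. All 4 submerged arrays lay below all 4 controls. The fall was -3.76 ± 0.22 (SE; 13.5-fold lower, limma adjusted p 3.6e-05) in juvenile plants and -3.39 ± 0.22 (10.5-fold lower, 5.9e-05) in adult plants. FUM1 (AT2G47510), the mitochondrial fumarase of the cycle itself, moved the other way, from 9.62 and 9.52 to 10.04 and 10.05 in juvenile plants and from 9.64 and 9.30 to 9.92 and 9.95 in adult plants. Its rises of 0.48 (adjusted p 0.0345) and 0.46 (0.0393) were small. The juvenile call was lost on omission of any juvenile or any submerged array (changes of 0.43 to 0.52), and the adult call on omission of any array except replicate 1 of the adult controls (0.30 to 0.63).

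Among the early steps, the E1 component of pyruvate dehydrogenase decarboxylates pyruvate. IAR4 (AT1G24180), 1 of its alpha subunit genes, had 10.13 and 10.15 in juvenile controls, 10.92 and 10.87 in submerged juvenile plants, 10.18 and 10.15 in adult controls, and 10.82 and 10.88 in submerged adult plants. The submerged arrays all lay above the controls, with rises of 0.75 ± 0.11 (SE; adjusted p 0.00151) and 0.69 ± 0.11 (0.00233). The other alpha subunit gene, E1 ALPHA (AT1G59900), stayed between 11.86 and 11.92 on all 8 arrays, with changes of -0.04 (95% interval -0.28 to 0.21) and -0.00 (-0.24 to 0.24). MAB1 (AT5G50850), the beta subunit, changed by -0.09 in juvenile and 0.14 in adult plants and was called at neither age.

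The E2 component carries the acetyl group. Of its 3 genes, LTA3 (AT3G52200) rose, from 8.80 and 8.86 to 9.18 and 9.17 in juvenile plants and from 8.85 and 8.76 to 9.41 and 9.43 in adult plants. The adult rise was 0.61 ± 0.11 (SE, adjusted p 0.00434) and held in all omissions; the juvenile rise of 0.35 (0.0436) was lost when any 1 array was left out (0.31 to 0.38). AT3G13930 changed by 0.40 (adjusted p 0.0918) and 0.31 (0.181), and AT1G54220 by -0.33 (0.101) and -0.17 (0.403). After quantile normalization or centring of each array on its median, AT1G54220 was called as lower in juvenile plants.

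The E3 component, dihydrolipoyl dehydrogenase, is shared between pyruvate dehydrogenase, 2-oxoglutarate dehydrogenase and the glycine decarboxylase of photorespiration. Its 2 genes moved in opposite directions by similar amounts. mtLPD1 (AT1G48030) had 9.10 and 9.05 in juvenile controls, 8.12 and 7.97 in submerged juvenile plants, 8.89 and 9.13 in adult controls, and 8.10 and 8.05 in submerged adult plants. mtLPD2 (AT3G17240) had 6.09 and 5.98, then 7.03 and 6.97, then 6.24 and 6.06, then 7.14 and 7.08 in the same order. Neither gene had any overlap between treatments at either age. mtLPD1 fell by 1.03 ± 0.13 (SE, adjusted p 0.000913) in juvenile and by 0.93 ± 0.13 (0.00147) in adult plants, while mtLPD2 rose by 0.96 ± 0.12 at each age (0.000848 and 0.000914).

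Citrate synthase joins acetyl-CoA to oxaloacetate. ATCS (AT2G44350, also CSY4) changed by -0.25 in juvenile plants (adjusted p 0.299) and fell by 0.64 in adult plants (0.0208), a call lost without replicate 1 of the submerged adult arrays or replicate 2 of the adult controls (-0.81 to -0.48 over the omissions). CSY5 (AT3G60100) was dim, between 2.99 and 3.37, with changes of 0.17 and 0.03. Aconitase turns citrate into isocitrate. ACO1 (AT4G35830) went from 10.60 and 10.48 to 11.19 and 11.05 in juvenile plants and from 10.76 and 10.72 to 11.30 and 11.33 in adult plants, without overlap. It rose by 0.58 at each age (limma adjusted p 0.00732 and 0.00762), the juvenile call being lost without replicate 2 of the juvenile controls (0.51 to 0.64). ACO3 (AT2G05710) rose by 0.49 in juvenile plants (0.0167), lost without replicate 1 of the submerged juvenile arrays or either juvenile control (0.43 to 0.54), and changed by 0.23 in adult plants (0.181).

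The NAD-dependent isocitrate dehydrogenase, which makes 2-oxoglutarate in the mitochondrion, pairs regulatory with catalytic subunits. IDH2 (AT2G17130), a regulatory subunit gene, had 8.11 and 8.05 in juvenile controls, 9.71 and 9.38 in submerged juvenile plants, 8.32 and 8.43 in adult controls, and 9.74 and 9.76 in submerged adult plants. The submerged arrays all lay above the controls. The rises were 1.47 ± 0.14 (SE; 2.76-fold, adjusted p 0.000258) and 1.38 ± 0.14 (2.60-fold, 0.000364). The other regulatory gene, IDH1 (AT4G35260), changed by 0.25 (0.151) and 0.23 (0.175). Of the catalytic subunit genes, IDH-V (AT5G03290) rose by 0.49 (0.0156) and 0.40 (0.0328), and IDH-VI (AT3G09810) changed by 0.47 (0.0618) and 0.38 (0.118). The IDH-V call was lost in juvenile plants without replicate 2 of the submerged juvenile arrays or either juvenile control (0.46 to 0.51), and in adult plants without any control or any submerged adult array (0.34 to 0.47). cICDH (AT1G65930), the cytosolic NADP-dependent enzyme, rose by 0.33 (0.0475) and 0.49 (0.00947). Its juvenile call was lost on any omission (0.31 to 0.34) and its adult call without either adult control (0.47 to 0.51).

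2-Oxoglutarate dehydrogenase, built like pyruvate dehydrogenase, makes succinyl-CoA. Of its 4 E1 and E2 genes, 4 were called as raised in juvenile plants and 3 in adult plants. These are 100% and 75.0%, beside 15.5% and 14.6% of all loci. Several of these calls were lost in an omission, as given with each gene. The largest rise of any member was that of AT4G26910, an E2 (succinyltransferase) gene. It had 8.66 and 8.59 in juvenile controls, 10.66 and 10.49 in submerged juvenile plants, 8.87 and 8.70 in adult controls, and 10.45 and 10.46 in submerged adult plants, with no overlap. The rises were 1.95 ± 0.12 (SE; 3.86-fold, adjusted p 4.5e-05) and 1.67 ± 0.12 (3.19-fold, 9.3e-05). AT5G55070, the other E2 gene, rose by 0.48 (0.0187) and 0.45 (0.0241). Its juvenile call was lost without replicate 1 of the submerged juvenile arrays or either juvenile control (0.43 to 0.54) and its adult call without replicate 2 of the submerged adult arrays or either adult control (0.38 to 0.52).

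The E1 gene AT5G65750 of the same complex went from 7.88 and 8.00 to 8.57 and 8.62 in juvenile plants, a rise of 0.65 ± 0.11 (SE, adjusted p 0.00388). Its adult rise of 0.35 (0.0495) was lost when any 1 array was left out (0.31 to 0.40). The other E1 gene, AT3G55410, rose by 0.45 in juvenile plants (0.0462), lost in all omissions except those of a submerged adult array (0.37 to 0.52), and changed by 0.05 in adult plants (0.846).

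Succinyl-CoA ligase makes ATP without oxygen, by substrate-level phosphorylation. Its alpha subunit gene AT5G08300 had 8.18 and 8.09 in juvenile controls, 9.33 and 9.35 in submerged juvenile plants, 8.34 and 8.31 in adult controls, and 9.19 and 9.17 in submerged adult plants. The treatments did not overlap, and the rises were 1.21 ± 0.11 (SE; 2.31-fold, adjusted p 0.000183) and 0.85 ± 0.11 (1.80-fold, 0.000934). The second alpha gene, AT5G23250, changed by 0.03 (95% interval -0.41 to 0.47) and -0.10 (-0.54 to 0.34), with overlapping arrays. AT2G20420, the beta subunit gene, changed by 0.20 (-0.06 to 0.47) and 0.09 (-0.17 to 0.36).

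Succinate dehydrogenase passes electrons from succinate to ubiquinone. SDH2-2 (AT5G40650), a gene for its iron-sulphur subunit, had 9.66 and 9.71 in juvenile controls, 8.28 and 8.29 in submerged juvenile plants, 9.74 and 9.95 in adult controls, and 8.5 and 8.1 in submerged adult plants. All submerged arrays lay below the controls, with falls of -1.40 ± 0.16 (SE; 2.65-fold lower, adjusted p 0.000576) and -1.54 ± 0.16 (2.91-fold lower, 0.000402). The other iron-sulphur gene of the set, SDH2-1 (AT3G27380), stayed between 6.03 and 6.23 on the 8 arrays. Neither flavoprotein gene was called. SDH1-1 (AT5G66760) changed by 0.19 and -0.07, and SDH1-2 (AT2G18450), dim at 3.21 to 4.28, by -0.20 and 0.33.

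Malate dehydrogenase closes the cycle by oxidising malate to oxaloacetate. mMDH2 (AT3G15020) went from 7.79 and 7.66 to 7.01 and 7.08 in juvenile plants and from 7.80 and 7.40 to 6.65 and 7.10 in adult plants. It fell by 0.68 (adjusted p 0.0328) and 0.72 (0.0271). The juvenile call was lost without any juvenile array (-0.75 to -0.62), and the adult call without replicate 1 of the submerged adult arrays or of the adult controls (-0.94 to -0.49). mMDH1 (AT1G53240), the other mitochondrial gene, changed by -0.21 in juvenile plants (0.178) and fell by 0.44 in adult plants (0.0184), lost without replicate 1 of the submerged adult arrays or either adult control (-0.50 to -0.38). The cytosolic c-NAD-MDH1 (AT1G04410) changed by -0.16 and 0.06. NAD-malic enzyme turns malate into pyruvate inside the mitochondrion. NAD-ME2 (AT4G00570) changed by 0.48 in juvenile plants (0.0517) and rose by 0.56 in adult plants (0.0296), lost without any control except replicate 1 of the adult controls and without either submerged adult array (0.43 to 0.69). NAD-ME1 (AT2G13560) changed by 0.14 and 0.15.

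**Figure D2:**
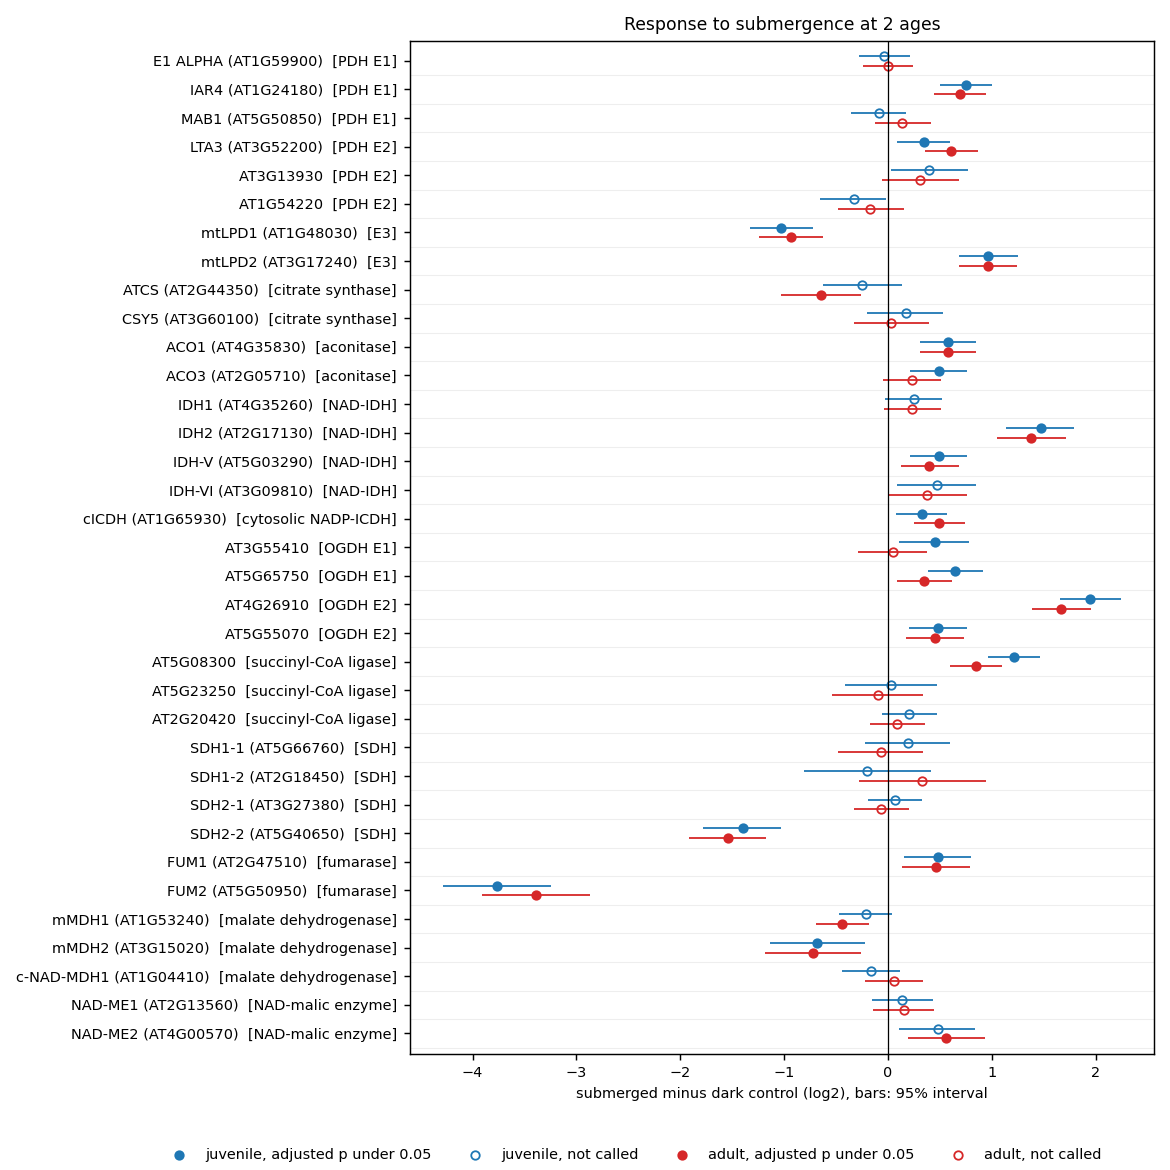
Change on submergence (submerged minus dark control, log2, horizontal axis) of 35 of the genes in juvenile (blue) and adult (red) plants, with 95% intervals from limma; filled points were called at an adjusted p under 0.05. The 4 E1 and E2 genes of 2-oxoglutarate dehydrogenase have 4 filled rises in juvenile and 3 in adult plants. Of all loci, 15.5% and 14.6% were raised. The called genes of succinate dehydrogenase and malate dehydrogenase fell.

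Calls were then counted for some of the steps. NAD-dependent isocitrate dehydrogenase and 2-oxoglutarate dehydrogenase have 8 genes in the set, of which 6 were called as raised in juvenile plants, 5 in adult plants and 0 as lowered at either age; the shares raised were 75.0% and 62.5%, beside 15.5% and 14.6% of all loci. Citrate synthase, succinate dehydrogenase and malate dehydrogenase have 9, of which 0 were called as raised at either age, 2 were lowered in juvenile and 4 in adult plants. The juvenile share lowered, 22.2%, was near the 18.8% of all loci, and the adult one was 44.4%, beside 18.9%. Pyruvate dehydrogenase and the shared E3 had 8 genes, with 3 raised and 1 lowered at each age. The E3 genes also serve 2-oxoglutarate dehydrogenase but were counted only here, so the lowered mtLPD1 is left out of the first count. Subunits outside the set, such as SDH7, are in none of these counts. The members of aconitase, succinyl-CoA ligase, fumarase and NAD-malic enzyme, and cICDH, were left out of them too. This grouping of steps was made after the values were seen, so the counts of 0 follow in part from how the steps were joined. The shares beside those of all loci are a description, and the grouping was not tested.

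Isoforms of one enzyme were then compared within arrays, which cancels any constant shift of an array. The difference itself carries probe effects, so only its shift on submergence is read. For 19 pairs of isoforms the difference between both genes was taken on each array. The 4 submerged arrays were compared with the 4 controls by a two-sided exact permutation test over 70 assignments, whose smallest possible p is 0.0286. The assignments were not restricted to arrays of the same age, and the means and SDs of the pairs also pool both ages. A test restricted in that way, which has fewer assignments and a larger smallest p, was not run. In 14 pairs the submerged and control arrays did not overlap and this smallest p was reached (0.0388 adjusted over the 19 pairs). The other 5 pairs were not called. Pairs share genes where an enzyme has more than 2 isoforms, as with the 3 E2 genes of pyruvate dehydrogenase. The 19 pairs are therefore not separate results. A called pair, ATCS with CSY5, includes the dim CSY5 (2.99 to 3.37). SDH2-1 (6.03 to 6.23), in the called pair with SDH2-2, also lay below the array median on every array. No share over other gene pairs was computed; of single loci, 43.0% had 4 submerged arrays that did not overlap the 4 controls, so the 14 pairs are given as a description of these enzymes. The adjusted value rests on how many pairs reach it: without replicate 1 or replicate 2 of the juvenile controls, or replicate 1 of the adult controls, 10 pairs reached 0.0286 and 0 passed after adjustment (0.0543).

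The pair with the largest shift of the 19 was FUM1 and FUM2, whose difference rose from 1.30 ± 0.20 in controls to 5.35 ± 0.45 in submerged plants (SD, n = 4; exact permutation p 0.0286), a relative shift of 4.04, or 16.5-fold. mtLPD1 minus mtLPD2 went from 2.95 ± 0.20 to 1.01 ± 0.06 (SD, n = 4), a shift of -1.94 (exact p 0.0286), with -1.99 in juvenile and -1.89 in adult plants. For SDH2-1 and SDH2-2 the shift was 1.47 in juvenile and 1.48 in adult plants. AT4G26910 gained 1.35 on AT5G55070, IDH2 gained 1.18 on IDH1, AT5G08300 gained 1.06 on AT5G23250 and IAR4 gained 0.74 on E1 ALPHA, each with an exact p of 0.0286. LTA3 gained 0.73 on AT1G54220 (0.68 in juvenile and 0.78 in adult plants) and AT3G13930 gained 0.60 on it (0.74 and 0.47). ACO1 gained 0.22 on ACO3, with 0.09 in juvenile and 0.34 in adult plants.

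The 5 pairs not called were IDH-V with IDH-VI (shift 0.02, exact p 0.857), SDH1-1 with SDH1-2 (-0.01, 0.971), LTA3 with AT3G13930 (0.12, 0.371), mMDH1 with mMDH2 (0.37, 0.0857) and the E1 pair AT3G55410 with AT5G65750 (-0.26, 0.0571). The catalytic isocitrate dehydrogenase genes kept their difference within 3.60 ± 0.10 in controls and 3.62 ± 0.17 in submerged plants (SD, n = 4).

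**Figure D3:**
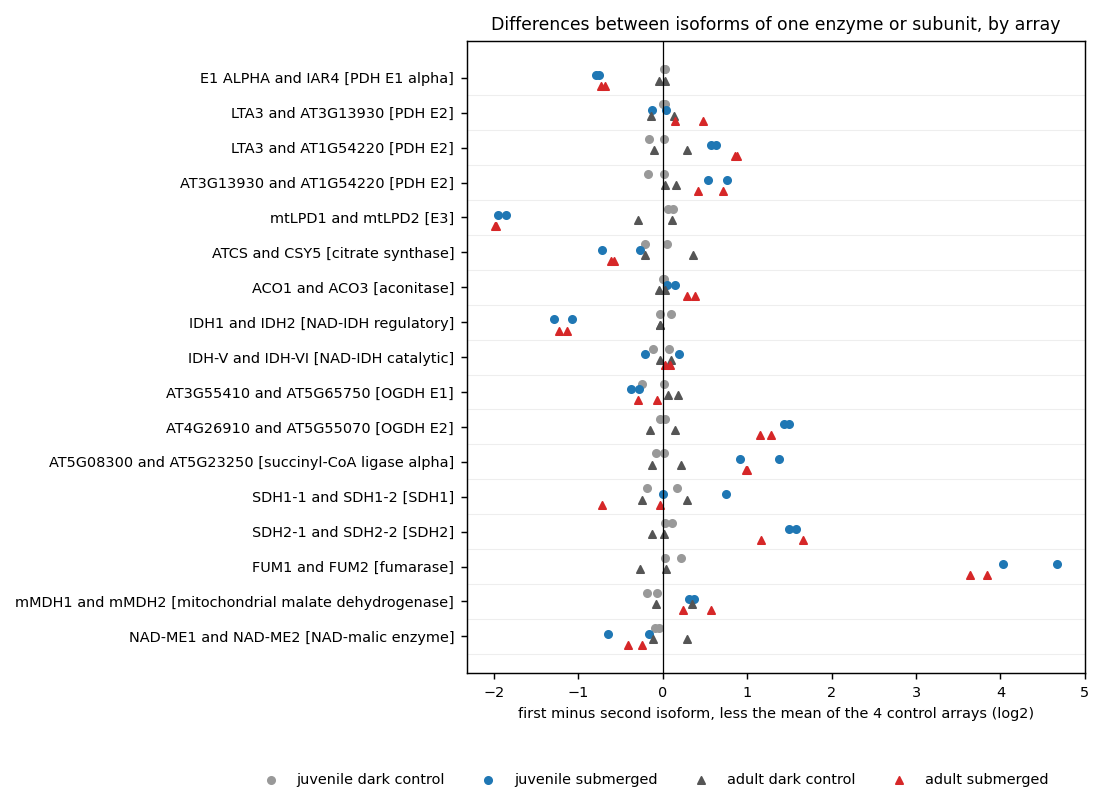
First minus second isoform on each array, less the mean of the 4 control arrays (log2, horizontal axis), for 17 pairs; grey symbols are controls, blue points juvenile submerged and red triangles adult submerged arrays. Submerged arrays of FUM1 and FUM2 sit near 4, those of mtLPD1 and mtLPD2 near -1.94, and those of IDH-V and IDH-VI around 0.

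The age of the plants was compared within each treatment. Between adult and juvenile dark controls 0 of 36 members were called with limma, where 0.0539% of all loci were. At an unadjusted p under 0.05, which 10.1% of all loci reached, 1 member passed: AT3G55410, 0.35 higher in adult controls (p 0.0412, adjusted 0.471). Between submerged plants 0 were called, beside 0.126% of all loci, and 1 had an unadjusted p under 0.05, as 11.8% of all loci did: SDH1-2, 0.67 higher in adult plants (p 0.0347, adjusted 0.381). The median age difference of the members was 0.11 in controls and -0.00 under water. For the interaction, the adult response minus the juvenile one, 0 members and 0.0% of all loci were called, and 1 member had an unadjusted p under 0.05, where 7.3% of all loci did. That member was AT5G08300, with -0.36 ± 0.15 (SE, limma adjusted p 0.682).

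The precision of the interaction was limited by 2 arrays per group. Its 95% intervals had half-widths of 0.34 to 0.86, so differences between the ages as large as many of the responses lie inside these intervals. For FUM2 the interaction was 0.37 (95% interval -0.36 to 1.10), for SDH2-2 -0.14 (-0.67 to 0.39), for AT4G26910 -0.28 (-0.68 to 0.13) and for mtLPD2 -0.00 (-0.40 to 0.39).

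**Figure D4:**
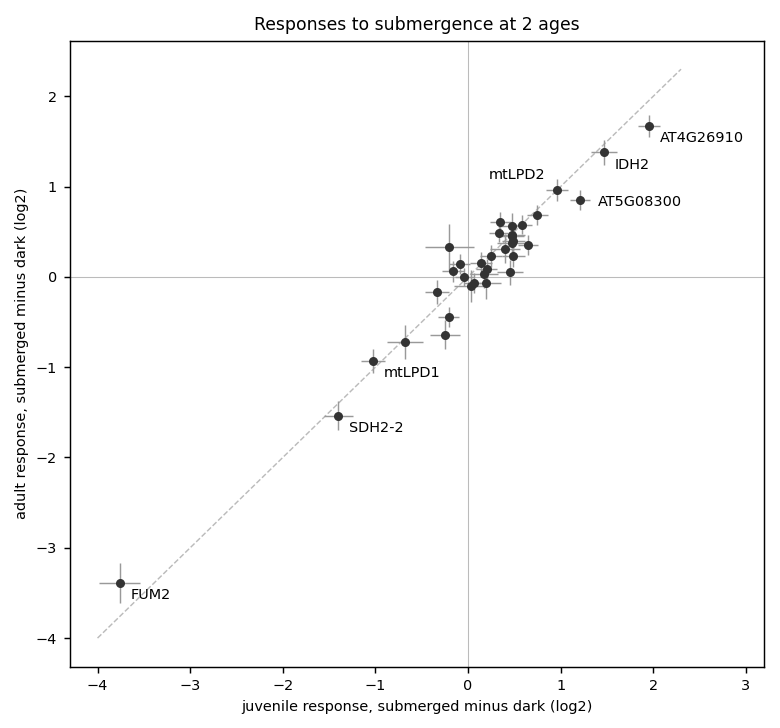
Response of 35 of the genes in juvenile (horizontal axis) and adult plants (vertical axis), submerged minus dark control on the log2 scale, with standard errors as bars and the line of equal response dashed. FUM2 lies at -3.76 and -3.39 and AT4G26910 at 1.95 and 1.67, and the other points lie along the line between them.

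Other genes around the cycle were compared through lists of loci. Their counts stand against the all-loci shares of 15.5% raised and 18.8% lowered in juvenile plants and 14.6% and 18.9% in adult plants. The plastid pyruvate dehydrogenase, which supplies acetyl-CoA for fatty acid synthesis, had 7 of 7 genes called, and they fell at each age, with medians of -1.86 in juvenile and -2.07 in adult plants; the mitochondrial complex and shared E3 had 1 of 8 lowered. Examples were PDH-E1 BETA (AT1G30120), by -2.44 and -2.67, and the E3 gene AT4G16155, by -2.95 and -2.57. No test compared the complexes as lists. Of 12 measured further subunits, isoforms and regulators of the mitochondrial enzymes, 1 rose and 1 fell in juvenile plants and 2 rose and 1 fell in adult plants. SDHAF2 (AT5G51040), an assembly factor of succinate dehydrogenase, rose by 0.52 (adjusted p 0.00801) and 0.46 (0.0136), and AT5G62575, a gene for the subunit SDH7, by 0.54 in adult plants (0.0102). PDK (AT3G06483), the kinase that inactivates mitochondrial pyruvate dehydrogenase, fell from 10.64 and 10.72 to 10.20 and 10.12 in juvenile plants and from 10.78 and 10.86 to 10.31 and 10.37 in adult plants, by 0.52 (0.01) and 0.48 (0.0146). The juvenile calls were lost without replicate 2 (PDK, -0.56 to -0.48) or replicate 1 (SDHAF2, 0.48 to 0.55) of the juvenile controls. The adult calls were lost without replicate 1 of the submerged adult arrays (PDK and SDHAF2) or replicate 2 of them (AT5G62575), and without replicate 1 (AT5G62575 and SDHAF2) or replicate 2 (PDK and SDHAF2) of the adult controls; their ranges were -0.52 to -0.43 for PDK, 0.44 to 0.49 for SDHAF2 and 0.49 to 0.59 for AT5G62575.

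Of 9 mitochondrial pyruvate and dicarboxylate carriers, 2 rose in juvenile plants (22.2%, near the share of all loci) and 4 in adult plants (44.4%), and 0 fell. DIC2 (AT4G24570), a dicarboxylate carrier, rose by 4.24 and 4.11, and UCP5 (AT2G22500, also DIC1) by 1.59 and 1.57. Among 13 genes of glutamate, alanine and gamma-aminobutyrate (GABA) metabolism, which draws on 2-oxoglutarate and feeds succinate into the cycle, 5 rose and 2 fell at each age. GAD4 (AT2G02010) and GAD (AT5G17330), which make GABA from glutamate, rose by 4.22 and 2.70 in juvenile and by 4.44 and 3.41 in adult plants. Other listed genes for the same enzyme were called at neither age. POP2 (AT3G22200) and ALDH5F1 (AT1G79440), which convert GABA to succinate, fell by 1.69 and 0.98 in juvenile and by 1.35 and 0.91 in adult plants.

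Around phosphoenolpyruvate, which feeds carbon into oxaloacetate, 2 of 6 genes rose and 1 fell in juvenile plants and 1 rose and 1 fell in adult plants. PPC2 (AT2G42600), a phosphoenolpyruvate carboxylase, fell, with changes of -1.88 and -2.22, while PCK1 (AT4G37870), which runs the opposite way, rose by 1.18 and 1.16. PPC1 (AT1G53310) rose by 0.83 in juvenile plants (adjusted p 0.00480) and changed by 0.27 in adult plants (0.218). Of 6 glyoxylate cycle and peroxisomal genes, 1 rose and 4 fell in juvenile plants and 1 rose and 1 fell in adult plants. ICL (AT3G21720), isocitrate lyase, rose by 2.31 and 1.60, its adult call being lost without replicate 2 of the submerged adult arrays or either adult control (1.09 to 2.10). MLS (AT5G03860), malate synthase, fell by 0.72 in juvenile plants, lost without either submerged juvenile array or replicate 2 of the juvenile controls (-0.99 to -0.46). CSY3 (AT2G42790), a peroxisomal citrate synthase, fell by 0.58 and 0.45, and PMDH2 (AT5G09660), a peroxisomal malate dehydrogenase, fell by 0.60 in juvenile plants. CSY3 lost its juvenile call in 3 omissions (replicate 1 of the submerged juvenile arrays and either juvenile control, -0.64 to -0.53) and its adult call in 5 (any control and replicate 2 of the submerged adult arrays, -0.55 to -0.35). PMDH2 lost its call without any juvenile array or adult control (-0.72 to -0.48). Of 8 other malate dehydrogenases and malic enzymes, 2 rose at each age, 1 fell in juvenile plants and 0 fell in adult plants. NADP-ME2 (AT5G11670), a cytosolic malic enzyme, rose by 1.22 and 1.39. MDH (AT3G47520), the plastid NAD-dependent enzyme, rose by 0.56 and 0.36, and AT5G58330, the plastid NADP-dependent one, fell by 0.45 in juvenile plants. The juvenile call of MDH was lost without replicate 1 of the juvenile controls (0.50 to 0.62), its adult call without any control or submerged adult array (0.34 to 0.38), and that of AT5G58330 without any juvenile array or adult control (-0.48 to -0.42).

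**Figure D5:**
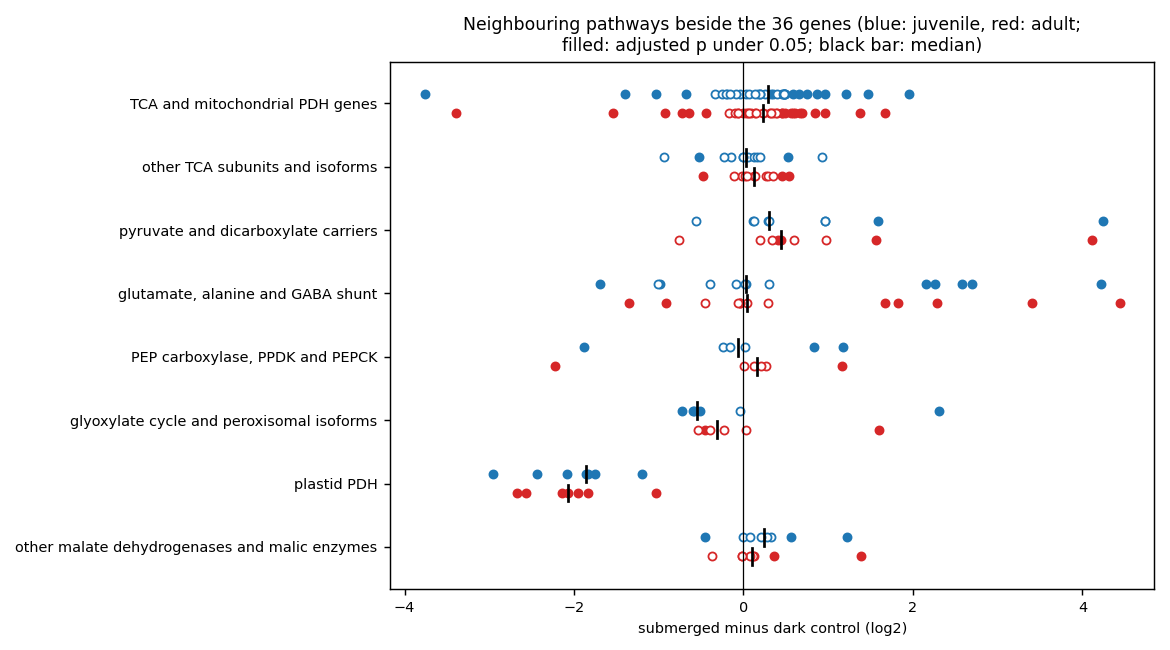
Change on submergence (log2, horizontal axis) of every measured gene of the 36 and of 7 neighbouring lists, in juvenile (blue) and adult (red) plants; filled points were called at an adjusted p under 0.05 and black bars are medians. The plastid pyruvate dehydrogenase genes all lie below -1, while the 36 genes have medians of 0.29 and 0.23.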

How the data were processed

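Per the submitters' processing notes, the authors used RMA and limma; versions, array model, genome build and assignment of probes to loci are not given in the sources used here. The deposited values were taken as log2 from their range (1.86 to 13.0), with array medians of 6.13 to 6.30. Detection calls were not used here, so a low value is no sign of absence, and near-identical genes may share probes. The number of arrays limits the precision. Symbols came from RefSeq (TAIR10.1; 97.9% of loci matched), and the enzymes of loci without a symbol from general knowledge of Arabidopsis annotation. Sequences were not used here.

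With limma 3.58.1 (R 4.3.3; eBayes, default prior), each of the 4 groups had its own mean in 1 fit to 8 arrays, leaving 4 residual degrees of freedom, and 5 contrasts were tested two-sided. The smallest p from permuting 2 against 2 arrays is 0.333, and calls of single genes draw on variance pooled over loci. Isoform pairs were tested in Python 3.11.15. The rule names all 36 members, of which 1 is counted but not reported here by name, and, of each other list, the called genes with the 2 largest rises and the 2 largest falls in either response. Members and lists were chosen with earlier results of these data known. AT4G32210, on 1 of the lists, was not analysed here. Alternatives were another normalization, prior, threshold, filter or set of arrays, a replicate block, and omission of each array in turn. The fitting code was tested on simulated data.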

Additional observations from a re-analysis of the deposited data

Results flagged for a closer look

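MAB1 (AT5G50850), the beta subunit gene of mitochondrial pyruvate dehydrogenase, drew attention because its arrays separated in opposite directions at the 2 ages. Both submerged juvenile arrays (11.03 and 11.13) lay below the juvenile controls (11.15 and 11.20). Both submerged adult arrays (11.15 and 11.23) lay above the adult controls (11.00 and 11.10). The interaction was 0.23 (95% interval -0.14 to 0.61, limma adjusted p 0.810), so the difference did not pass its test.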

How the results depend on the processing

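The counts of members called, 19 in juvenile and 20 in adult plants, fell to 11 and 12 at an adjusted p under 0.01. The share of all loci at that threshold is not given here. A fit to only the arrays of the comparison called 16 and 13, and omission of 1 array gave 10 to 16 and 12 to 18. In the fit to only the arrays of the comparison, 44.4% of members were called in juvenile plants, beside 30.6% of all loci. The adult share in that fit was 36.1%, beside 29.7%. The juvenile count was 21 with an intensity trend and robust prior (58.3%, beside 37.4% of all loci), which added AT3G13930 and AT2G20420. It was 22 of 32 tested without the dimmest 50% of loci (68.8%, beside 56.7%), which added AT3G13930, IDH-VI and NAD-ME2. The adult count was 20 under both (55.6% beside 36.9%, and 62.5% beside 55.9%). The median change of 0.29 in juvenile plants was 0.16 after centring, and ranged from 0.27 to 0.31 over the omissions; that of 0.23 in adult plants ranged from 0.16 (without replicate 1 of the adult controls) to 0.26. Age comparisons and the interaction kept a count of 0 under each alternative run. Centring ended the juvenile calls of LTA3, cICDH, AT3G55410, AT5G55070 and FUM1, and AT1G54220 and mMDH1 were then called as lower; without replicate 2 of the submerged juvenile arrays, IDH-VI and NAD-ME2 were called in juvenile plants. The cause of these moves was not tested.

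Some small changes that were never called turned sign. With quantile normalization the juvenile changes were 0.05 for E1 ALPHA, -0.04 for AT5G23250 and -0.06 for SDH2-1, and the adult ones 0.01 for E1 ALPHA and -0.06 for CSY5. With centring they were -0.10 for AT5G23250 and -0.06 for SDH2-1 in juvenile plants and 0.03 for E1 ALPHA in adult plants. Over the omissions, juvenile changes ran from -0.21 to 0.27 for AT5G23250 and from -0.50 to 0.10 for SDH1-2. Adult changes ran from -0.02 to 0.02 for E1 ALPHA, -0.08 to 0.15 for CSY5, -0.12 to 0.21 for AT3G55410, -0.26 to 0.06 for AT5G23250, -0.32 to 0.18 for SDH1-1 and -0.04 to 0.17 for c-NAD-MDH1.

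The labels do not say whether arrays with the same replicate number belong together. Deviations of same-numbered arrays from their group means correlated between -0.113 and 0.0492, which cannot decide it. With the replicate block, 15 members were called in juvenile and 18 in adult plants, and 0 in the age comparisons and the interaction. For adult minus juvenile under water alone, a crossed pairing added after seeing the data was run and called 0. Of the 14 isoform pairs, 12 were called after quantile normalization, 0 to 14 over the omissions and 0 with the block, where permuting within numbers cannot give a p below 0.0556.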
